A study of Rattus norvegicus with 45 samples.

Results

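Dopamine acts on 5 receptor genes in the rat, Drd1, Drd2, Drd3, Drd4 and Drd5, and all 5 were read on the arrays of this study, which name 14218 genes. Every probe set whose platform annotation names one of these genes, or an older symbol of it, was taken: 8 of 31099 probe sets on the array, 2 for Drd1 (1368478_at and 1368479_at), 1 for Drd2 (1368708_a_at), 1 for Drd3 (1387733_at), 3 for Drd4 (1387520_at, 1394384_at and 1394385_s_at) and 1 for Drd5 (1369856_at). RNA came from 15 male Sprague-Dawley rats, whose subcutaneous osmotic minipumps, placed at an age of 9 to 11 weeks, delivered risperidone at 5 mg/kg/d, haloperidol at 0.25 mg/kg/d or vehicle (dilute acetic acid in water) for 21 days, with 5 rats per treatment. Striatum, hippocampus and frontal cortex of each rat were hybridized to Affymetrix rat arrays, which gave 45 arrays. Each drug was given at 1 dose, and no rat was sampled before day 21. Human tissue of the same study was left out.

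Dopamine receptors are G protein-coupled receptors of 2 classes. The D1-like receptors, encoded by Drd1 and Drd5, couple to the stimulatory G proteins Gs and Golf and raise cAMP, and the D2-like receptors, encoded by Drd2, Drd3 and Drd4, couple to Gi and Go and lower it. In striatum, Drd1 is the receptor of the direct pathway projection neurons, which also make substance P and dynorphin, and Drd2 is that of the indirect pathway projection neurons, which also make enkephalin and the adenosine receptor encoded by Adora2a. Haloperidol is an antagonist of D2-like receptors, and risperidone blocks D2-like receptors and serotonin 2A receptors. The comparisons of drug with vehicle ask whether receptor mRNA differed after 21 days of exposure.

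The sequences around the starts of Drd1, Drd2 and Drd5 are shown because Drd1 and Drd2 carried the striatal signal described here and varied together from array to array, while Drd5 had a different order of regions. They were taken from the RefSeq promoter table of the rat build GRCr8, which held all 5 genes, and run from 250 bases before to 50 bases after the start of a transcript. The windows are chr17:10546354-10546653 on the plus strand for Drd1, chr8:58605153-58605452 on the plus strand for Drd2 and chr14:76703295-76703594 on the minus strand for Drd5. Each is written 5′ to 3′ on the strand of its gene, and capitals mark the GC box letters GGGCGG or their reverse complement CCGCCC, searched on both strands.
Drd1: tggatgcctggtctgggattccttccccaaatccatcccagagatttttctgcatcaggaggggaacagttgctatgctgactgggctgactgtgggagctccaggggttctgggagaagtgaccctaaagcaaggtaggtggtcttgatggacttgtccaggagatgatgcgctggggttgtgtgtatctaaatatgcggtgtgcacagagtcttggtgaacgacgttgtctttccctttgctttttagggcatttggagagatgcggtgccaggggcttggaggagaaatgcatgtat
Drd2: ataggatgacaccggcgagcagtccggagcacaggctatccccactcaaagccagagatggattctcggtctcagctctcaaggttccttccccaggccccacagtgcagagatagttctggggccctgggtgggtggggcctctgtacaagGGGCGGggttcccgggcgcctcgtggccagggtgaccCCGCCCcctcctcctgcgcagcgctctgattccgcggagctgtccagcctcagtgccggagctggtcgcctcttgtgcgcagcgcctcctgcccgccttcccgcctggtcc
Drd5: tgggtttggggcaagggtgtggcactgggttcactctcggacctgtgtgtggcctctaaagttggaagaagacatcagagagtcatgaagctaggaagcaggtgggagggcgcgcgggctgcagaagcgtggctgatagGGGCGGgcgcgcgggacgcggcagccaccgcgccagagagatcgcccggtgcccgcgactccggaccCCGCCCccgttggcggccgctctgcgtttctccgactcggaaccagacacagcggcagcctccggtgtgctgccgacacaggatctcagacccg
The Drd1 window lies inside the annotated span of the gene (chr17:10545488-10550029), whereas those of Drd2 (gene span chr8:58605403-58669339) and Drd5 (chr14:76700244-76703344) begin upstream of it. The bases upstream of the Drd1 span were not examined, so the Drd1 letters do not describe them and are not a like comparison with Drd2 and Drd5. The Drd2 window held 67.3% G and C, 19 CpG pairs and 2 GC boxes, and the Drd5 window 67% G and C, 29 CpG pairs and 2 GC boxes. In the Drd1 window the share of G and C was 51.7%, with 5 CpG pairs and no GC box, beside medians of 51.7% and 7 CpG pairs over 33469 rat promoters, of which 33.1% held a GC box. Drd3 (window with 39.3% G and C, 2 CpG pairs and no GC box) and Drd4 (50.3%, 10 CpG pairs, 2 overlapping GC boxes) lie on chromosomes 11 and 1. None of the 5 windows held the letters TATAAA (14.2% of promoters) or TGACGTCA (1.83%). These matches describe letters in 1 window per gene.

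Values below are log2 of the deposited intensities, which the authors made by Robust Multi-array Average (RMA), so that a difference of 1 is a factor of 2. Differences were tested with limma over all probe sets whose mean over the 45 arrays reached the 40th percentile (log2 5.88), 18609 in all, with the rat as a random block. A probe set was called when its Benjamini-Hochberg adjusted p was below 0.05 and its difference reached 1.2-fold. Both Drd1 probe sets (percentiles 75.6 and 64.4 of the mean over all arrays) and Drd2 (57.7) passed this filter, and the probe sets of Drd4 (26.8, 24.3 and 21.8), Drd5 (17.2) and Drd3 (4.62) did not. The 5 dim probe sets were therefore read in the same fit without the filter, over 31042 probe sets. Brightness depends on the probes, so these percentiles served the filter alone and do not order the receptors by their mRNA.

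Striatum is the region in which Drd1 and Drd2 stood out. The Drd1 probe set 1368478_at lay between 11.66 and 11.85 in the striatum of the 5 vehicle rats (mean 11.79 ± 0.08, SD, n = 5), against 6.05 to 7.04 in hippocampus (6.28 ± 0.42) and 6.15 to 7.45 in frontal cortex (6.75 ± 0.49). No striatum array overlapped an array of the other regions, as the plot of every receptor value by array shows. Among the vehicle arrays, 51.2% of all probe sets had no overlap between striatum and hippocampus, and 38.6% had none between striatum and frontal cortex. The intensity of this Drd1 probe set was at least 32.7-fold higher in striatum than in frontal cortex (log2 5.03 with a standard error of 0.23, n = 5 rats, limma adjusted p = 1.16e-21) and at least 45.4-fold higher than in hippocampus (log2 5.50, adjusted p = 1.72e-23). The other Drd1 probe set, 1368479_at, gave at least 31.6-fold (log2 4.98, adjusted p = 2.54e-22) and at least 32.9-fold (log2 5.04, adjusted p = 4.1e-23). 

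**Figure D1:**
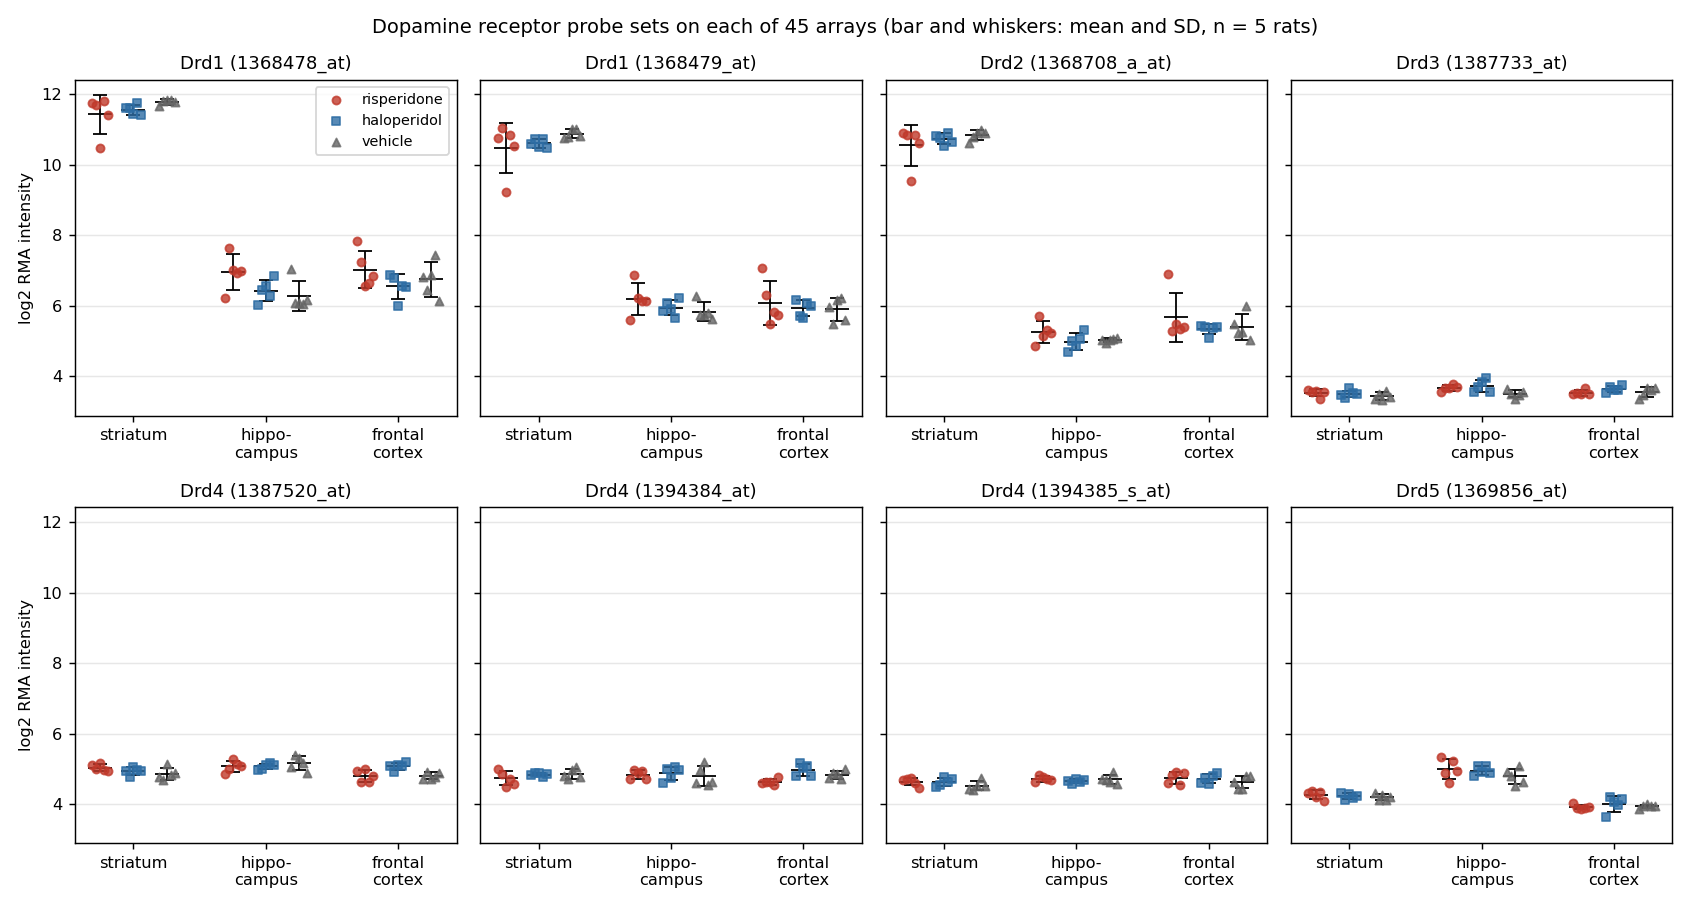
Log2 RMA intensity (vertical axis) of the 8 dopamine receptor probe sets on each of the 45 arrays, by region and treatment; points are single rats, bars and whiskers the mean and SD of 5 rats. Drd1 and Drd2 lie above 9 on every striatum array and below 8 on every other array, and the Drd5 points of hippocampus lie above those of both other regions.

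Drd2 was likewise highest in striatum. Its values were between 10.63 and 10.99 in striatum of vehicle rats (10.84 ± 0.14, SD, n = 5), 4.96 to 5.09 in hippocampus (5.04 ± 0.05) and 5.04 to 5.99 in frontal cortex (5.40 ± 0.37). The difference was at least 43.4-fold from frontal cortex (log2 5.44, standard error 0.20, adjusted p = 1.8e-24 from limma) and at least 55.8-fold from hippocampus (log2 5.80, adjusted p = 5.33e-26). These folds are read as lower bounds because the Drd2 means outside striatum lay below the filter level of 5.88, among values where background weighs on an intensity, and those of Drd1 1368479_at (5.84 in hippocampus and 5.90 in frontal cortex) lay near it. The folds of Drd1 1368478_at are read in the same way, since its vehicle values went down to 6.05 in hippocampus and 6.15 in frontal cortex. Drd2 passed the filter through its striatum arrays, so that its 2 calls were partly set by the filter. In these comparisons 46.1% of all tested probe sets were called in either direction against frontal cortex (18.3% higher) and 62.5% against hippocampus (8.59% higher). Ordered by the difference between striatum and frontal cortex, Drd2 was 2nd and Drd1 4th and 5th of 18609, beside Adora2a, which was 1st (log2 5.85), the transcription factor gene Dach1, 3rd (5.38), and Slc35d3, 6th (4.93). Against hippocampus Drd2 was 3rd and Drd1 4th and 6th, after a probe set with no gene name (1387241_at, 7.49) and Adora2a (6.08), with Dach1 5th (5.24).

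Between hippocampus and frontal cortex, whether Drd1 and Drd2 were called depended on how the regions were put on 1 scale. The deposited values differed in scale between regions. Array medians were 87.9 to 92.1 in striatum, 106.7 to 110.4 in hippocampus and 89.9 to 93.1 in frontal cortex. The quantiles of an array lay on average 0.026, 0.017 and 0.0254 (log2) from the mean quantiles of its own region, against 0.104, 0.159 and 0.0594 from those of all arrays. Whether the arrays were normalized within each region is stated by no source used here and was not tested. The median of all tested probe sets was 0.25 higher in hippocampus than in frontal cortex, 0.30 lower in striatum than in hippocampus and 0.06 lower in striatum than in frontal cortex. Hippocampus minus frontal cortex was -0.47 for Drd1 1368478_at (adjusted p = 0.0611), -0.06 for 1368479_at (0.811) and -0.36 for Drd2 (0.0999), and none of the 3 was called, where 53.2% of tested probe sets were. With quantile normalization across all 45 arrays the differences of Drd1 1368478_at (-0.71, adjusted p = 0.00793) and Drd2 (-0.58, 0.0121) were called, as they were with each array centered on the same median (-0.73, 0.00696, and -0.62, 0.00873). Both striatal comparisons of Drd1 and Drd2 were called under all 3 scalings, as the plot of region differences shows.

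**Figure D2:**
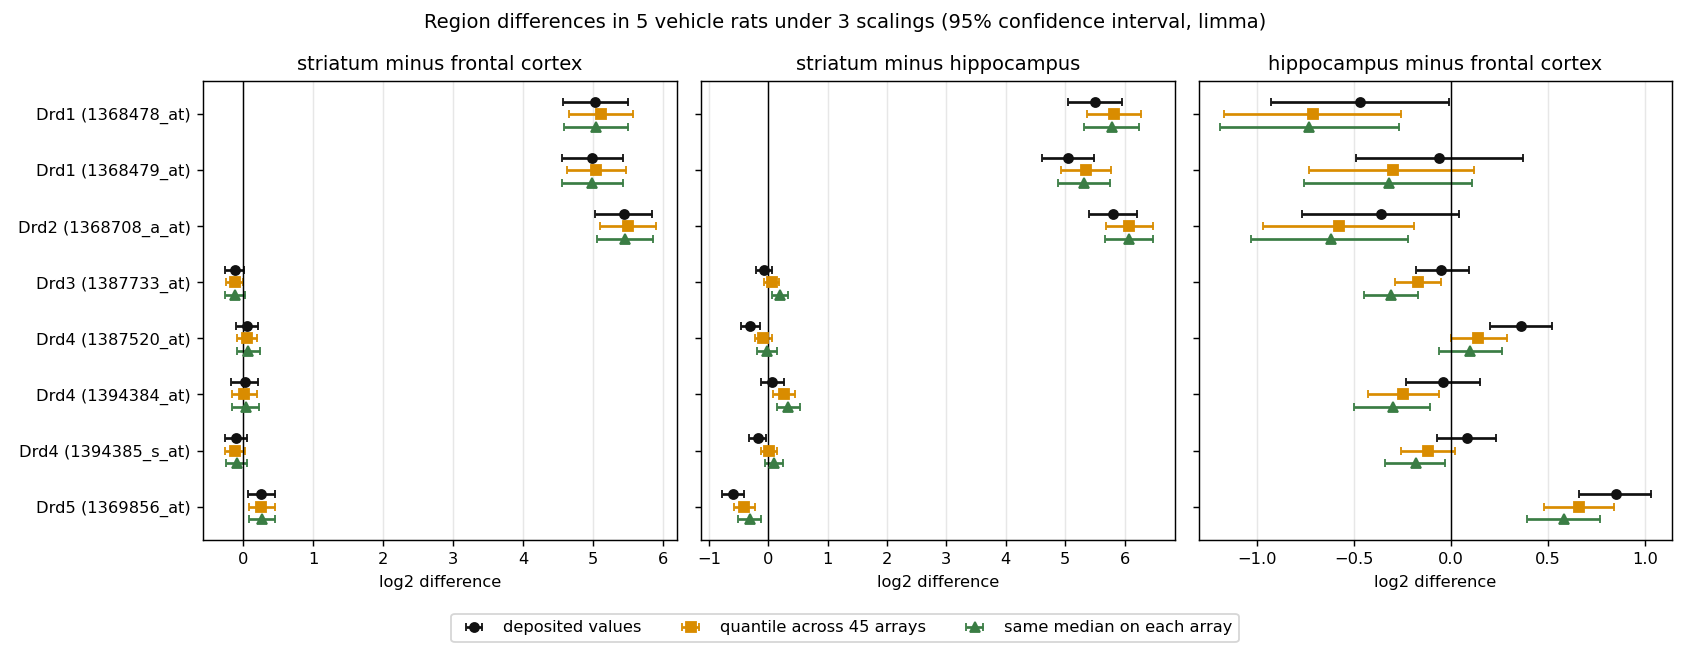
Log2 difference (horizontal axis) between regions of the 5 vehicle rats for each dopamine receptor probe set, with 95% confidence intervals from limma, on the deposited values, after quantile normalization across all arrays and with all array medians made equal. The striatal excess of Drd1 and Drd2 is near 5 to 6 on the log2 scale under each scaling, whereas the Drd4 differences that involve hippocampus move with the scaling.

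Drd5, the other D1-like receptor, was highest in hippocampus. Its values in vehicle rats were 4.31, 4.13, 4.25, 4.13 and 4.19 in striatum, 4.90, 4.80, 4.52, 5.08 and 4.64 in hippocampus, and 3.85, 3.95, 4.00, 3.96 and 3.95 in frontal cortex. Over all treatments, every striatum array (4.08 to 4.37) lay below the 15 hippocampus arrays (4.52 to 5.35), which lay above every frontal cortex array (3.64 to 4.19). The vehicle arrays of 48.3% of probe sets did not overlap between hippocampus and frontal cortex, and those of 51.2% did not between striatum and hippocampus. Such shares were not computed over all 15 arrays of a region. In vehicle rats the intensity was 1.8-fold higher in hippocampus than in frontal cortex (log2 0.85, standard error 0.09, adjusted p = 3.46e-10 from limma without the filter), and striatum was lower than hippocampus by 0.59 (log2 -0.59, adjusted p = 5.4e-07). All Drd5 values lay under the filter level of 5.88, where background weighs on an intensity, so this fold does not measure the mRNA ratio. Without the filter 46.6% of probe sets were called between hippocampus and frontal cortex (41.1% higher in hippocampus) and 53.3% between striatum and hippocampus (45.1% lower in striatum). Both Drd5 calls held with quantile normalization (0.66 and -0.40) and with equal medians (0.58 and -0.31). Striatum minus frontal cortex was 0.26 (adjusted p = 0.0171), under the 1.2-fold threshold and so not called, beside 39.6% of probe sets called without the filter, although the arrays of these groups did not overlap, as was true of 38.6% of probe sets.

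Drd3 and Drd4 were dim in all 3 regions. Drd3, a receptor known best from the ventral striatum, lay between 3.32 and 3.97 on all 45 arrays, with vehicle means of 3.44 in striatum, 3.51 in hippocampus and 3.56 in frontal cortex. The 3 Drd4 probe sets lay between 4.39 and 5.39, and they followed each other less closely than those of Drd1. Over the 15 arrays of a region, the treatment means subtracted, the correlation of 1387520_at with 1394384_at was -0.08 in frontal cortex, 0.57 in hippocampus and 0.28 in striatum. In the same order of regions it was 0.17, 0.36 and 0.44 for 1387520_at with 1394385_s_at, and 0.15, -0.20 and 0.48 for 1394384_at with 1394385_s_at. The 2 Drd1 probe sets, by contrast, had correlations of 0.87, 0.92 and 0.97 in the same regions. Drd4 1387520_at was called higher in hippocampus than in frontal cortex (log2 0.36, adjusted p = 1.34e-04) and lower in striatum than in hippocampus (-0.30, adjusted p = 0.00107), but neither call remained with quantile normalization (0.14 and -0.09) or equal medians (0.10 and -0.02). For Drd4 1394384_at, striatum minus hippocampus was 0.06 on the deposited values, and it was called only with the other scalings (0.26 and 0.34).

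Marker genes set striatum and hippocampus apart, and frontal cortex less so. All 15 measured striatal projection neuron markers (of 16 listed) were highest in striatum, 6 of 8 hippocampal markers were highest in hippocampus, and of 11 cortical and pyramidal neuron markers 5 were highest in frontal cortex, 6 in hippocampus and 0 in striatum. A bulk sample gives a mean over its cells, so that fewer cells of a type and less RNA per cell cannot be told apart. Rats were numbered in blocks by treatment (risperidone 52 to 60, haloperidol 41 to 50, vehicle 32 to 36), so that the order of handling, which no source used here states, cannot be told apart from treatment.

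In striatum, no difference of Drd1 or Drd2 from vehicle passed the test after either drug. After risperidone Drd1 1368478_at read 11.74, 11.71, 10.48, 11.80 and 11.42 in replicates 1 to 5, against 11.66, 11.80, 11.85, 11.85 and 11.78 after vehicle. After haloperidol the values were 11.60, 11.60, 11.45, 11.74 and 11.41. Risperidone replicate 3 stood far below the other 14 arrays, and the remaining values lay between 11.41 and 11.85. Risperidone minus vehicle was -0.36 (95% interval -0.88 to 0.17, adjusted p = 0.421 from limma, n = 5 rats each), and haloperidol minus vehicle was -0.23 (-0.75 to 0.30, adjusted p = 0.703). The intervals given here and below rest on a spread pooled over all 9 groups of region and treatment, not on the groups compared. In striatum the SD of this probe set was 0.14 after haloperidol and 0.08 after vehicle, against 0.55 after risperidone. None of the 3 bright probe sets was called after either drug in striatum, where 3.65% of tested probe sets were called after risperidone (0.887% higher and 2.76% lower) and 0.339% after haloperidol.

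The other Drd1 probe set and Drd2 gave similar values. Drd1 1368479_at averaged 10.48 ± 0.72 after risperidone and 10.61 ± 0.12 after haloperidol, against 10.88 ± 0.13 after vehicle (SD, n = 5 each). Its haloperidol values (10.47 to 10.73) were all below those of vehicle (10.76 to 11.02), and 2.83% of all probe sets had no overlap in that comparison; the difference was -0.27 (-0.77 to 0.22, adjusted p = 0.606). Drd2, the gene of the receptor that both drugs block, read 10.89, 10.85, 9.53, 10.86 and 10.63 after risperidone, 10.83, 10.77, 10.54, 10.91 and 10.65 after haloperidol and 10.63, 10.79, 10.89, 10.99 and 10.89 after vehicle. Risperidone replicate 3 was again the lowest array, and the others overlapped. Risperidone minus vehicle was -0.29 (-0.75 to 0.17, adjusted p = 0.465) and haloperidol minus vehicle -0.10 (-0.56 to 0.36, adjusted p = 0.864).

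**Figure D3:**
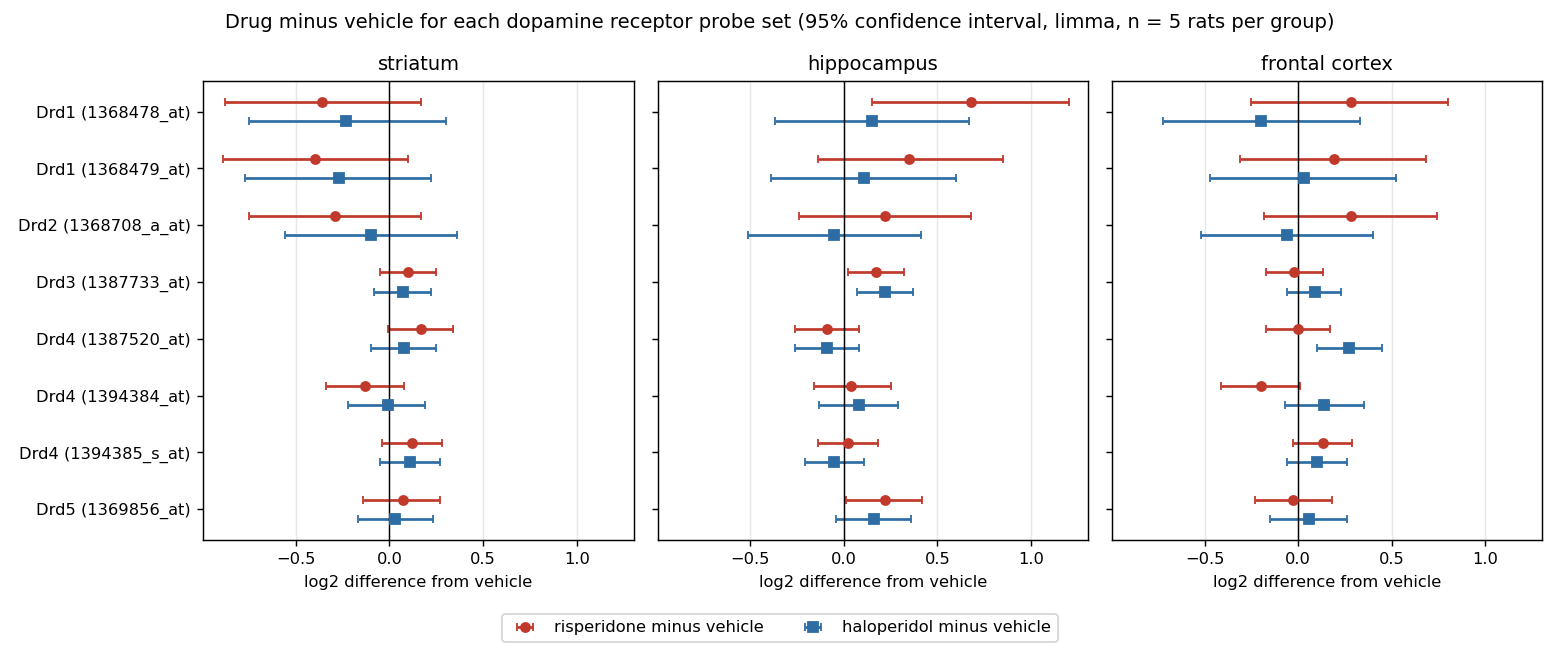
Log2 difference from vehicle (horizontal axis) of each dopamine receptor probe set after risperidone and after haloperidol, by region, with 95% confidence intervals from limma (n = 5 rats per group). Most intervals include 0, and the largest difference is that of Drd1 1368478_at after risperidone in hippocampus, 0.68.

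The striatum array of risperidone replicate 3 differed from the rest in far more than the receptors. On it 14 of 15 striatal projection neuron markers were the lowest of the 15 striatum arrays, by a mean of 0.86 below the region mean. Among them were Adora2a at 10.16, which was 1.09 below the region mean, and Tac1, the substance P precursor gene, at 10.34 (1.15 below). Of 11 markers of cortical and pyramidal neurons 10 lay above the region mean on it (mean 1.41), all but Lamp5, which was at -0.12. Of 5 thalamic markers 4 lay above (mean 0.59), while Rora was at -0.32. The 4 midbrain dopamine neuron markers had a mean of 0.67, made by Nr4a2 (2.27), which is also on the cortical list, and Aldh1a1 (0.99), with Slc18a2 at 0.02 and Ddc at -0.61. Without this array the risperidone group had a mean of 11.67 ± 0.17 for Drd1 1368478_at, 10.80 ± 0.21 for 1368479_at and 10.81 ± 0.12 for Drd2 (SD, n = 4). The differences from vehicle were then -0.14 (-0.65 to 0.38, adjusted p = 0.852), -0.11 and -0.05 (adjusted p = 0.949), and 295 of all tested probe sets (1.59%) were called in striatum after risperidone in place of 679.

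More generally, the receptors followed the striatal markers from array to array. With treatment means subtracted, the mean of both Drd1 probe sets and Drd2 had a Pearson correlation of 0.98 over the 15 striatum arrays (permutation p = 1.4e-04 with 100000 permutations within treatment, adjusted p = 3.15e-04 over 9 relations; Spearman 0.91) and 0.91 without the 2 arrays farthest from the median. With the mean of the 15 striatal markers the correlation was 0.99 for Drd1 (permutation p = 3e-05, adjusted p = 1.8e-04; Spearman 0.94) and 0.98 for Drd2 (permutation p = 9e-05, adjusted p = 2.7e-04; Spearman 0.88), and 0.95 and 0.94 without the 2 farthest arrays. The arrays thus fell along 1 line in the plot of receptors against striatal markers. The markers themselves averaged 11.30 after risperidone (arrays from 10.56 to 11.56) and 11.41 after haloperidol (11.27 to 11.52), against 11.57 after vehicle (11.45 to 11.63). The 11 cortical and pyramidal neuron markers averaged 6.96 after risperidone (6.23 to 8.21) and 6.98 after haloperidol (6.43 to 7.61), against 6.45 after vehicle (6.25 to 6.70). Their part in the receptor values was not tested.

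**Figure D4:**
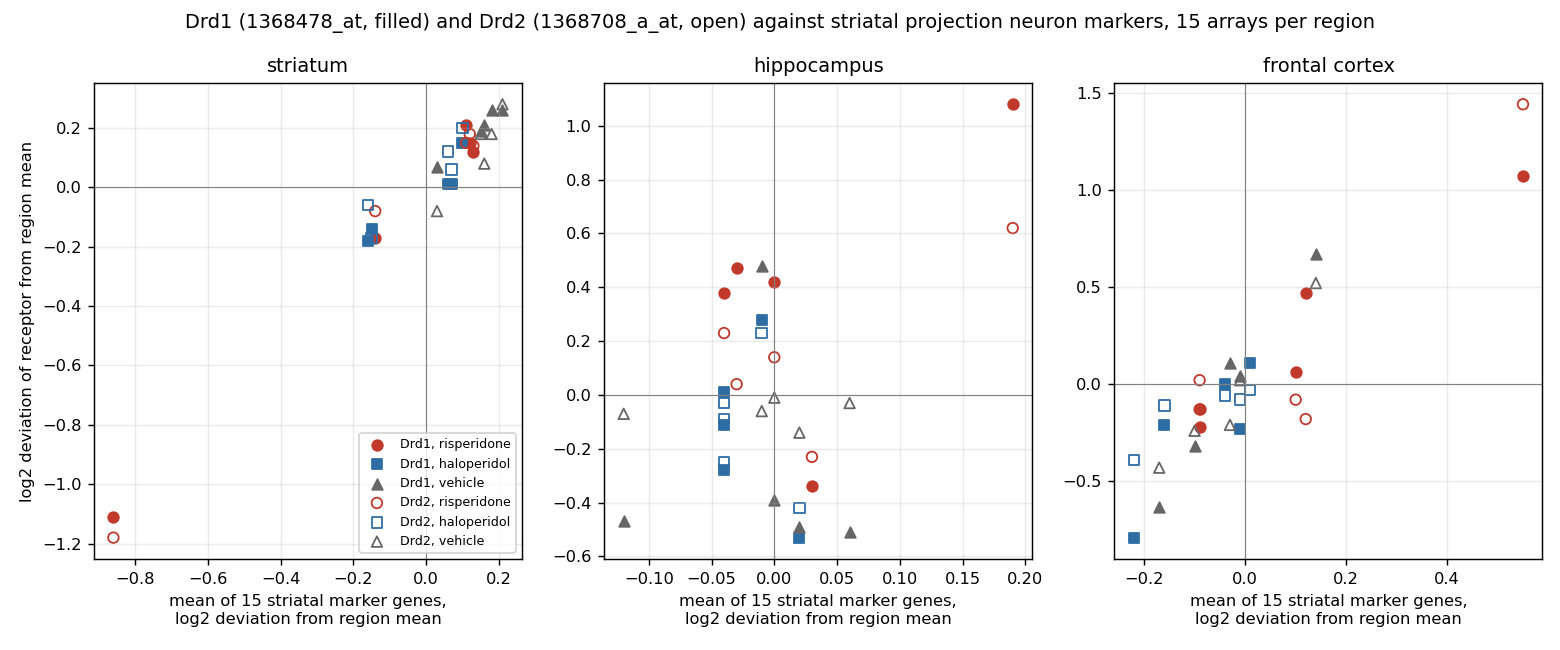
Deviation of Drd1 (1368478_at) and Drd2 from their region mean (vertical axis, log2) against the mean deviation of 15 striatal projection neuron markers (horizontal axis, log2) on the 15 arrays of each region. In striatum and frontal cortex the points rise together, and risperidone replicate 3 (-0.86) and replicate 1 (0.55) lie at the far ends of the marker axes.

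Drd2 minus Drd1 was also read on each array, as a description set to 0 at the vehicle mean of the region. In striatum it was 0.09 ± 0.08 after risperidone and 0.15 ± 0.07 after haloperidol, against 0.00 ± 0.07 after vehicle (SD, n = 5 each). The arrays ran from -0.03 to 0.16 after risperidone and from 0.05 to 0.22 after haloperidol, against -0.08 to 0.09 after vehicle, so that the groups overlapped. These striatal spreads are smaller than those of the receptors themselves, since both receptors were low on the same arrays. In hippocampus the difference was -0.30 ± 0.20 after risperidone, -0.18 ± 0.18 after haloperidol and 0.00 ± 0.34 after vehicle. That vehicle spread was larger than the spread of Drd2 there (0.05). In frontal cortex the values were 0.05 ± 0.39, 0.02 ± 0.13 and 0.00 ± 0.20 in the same order.

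In frontal cortex, Drd1 and Drd2 of the risperidone group were spread more widely, and again 1 array stood apart. Drd1 1368478_at read 7.85, 7.25, 6.56, 6.65 and 6.84 after risperidone, 6.89, 6.78, 5.99, 6.57 and 6.55 after haloperidol and 6.82, 6.46, 6.89, 7.45 and 6.15 after vehicle. Drd2 read 6.91, 5.29, 5.49, 5.34 and 5.39 after risperidone, 5.44, 5.41, 5.08, 5.36 and 5.39 after haloperidol and 5.49, 5.23, 5.26, 5.99 and 5.04 after vehicle. Risperidone replicate 1 was the highest array for both genes, and the other values of the 3 groups overlapped. On that array 14 of 15 striatal markers lay above the region mean and 11 were the highest of the 15 frontal cortex arrays, with a mean of 0.55 above. Risperidone minus vehicle was 0.28 for Drd1 1368478_at (-0.25 to 0.80, adjusted p = 0.557), 0.19 for 1368479_at (adjusted p = 0.69) and 0.28 for Drd2 (-0.18 to 0.74, adjusted p = 0.482). Haloperidol minus vehicle was -0.20 (adjusted p = 0.76), 0.03 (0.976) and -0.06 (0.926).

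None of these was called in frontal cortex, where 3.4% of tested probe sets were called after risperidone and 0.177% after haloperidol. Leaving out that array together with the hippocampus array of risperidone replicate 2 and the striatum array of risperidone replicate 3, a choice made after the values were seen, gave 0.05, -0.08 and -0.03 for the risperidone differences in frontal cortex. The correlation of Drd1 with Drd2 over the 15 frontal cortex arrays was 0.83 (permutation p = 0.00347, adjusted p = 0.0052; Spearman 0.63, adjusted p = 0.024), and 0.54 without the 2 arrays farthest from the median. With the striatal markers it was 0.91 for Drd1 (permutation p = 4e-05, adjusted p = 1.8e-04; Spearman 0.82) and 0.90 for Drd2 (permutation p = 0.00229, adjusted p = 0.00412; Spearman 0.81), and 0.87 and 0.73 without the 2 farthest arrays. Olfactory bulb and neuroblast markers lay 1.73 above the region mean on the frontal cortex array of risperidone replicate 2 and 1.39 above it on that of replicate 5, neither of which was the array highest in Drd1 or Drd2. Of the 8 such markers measured (13 listed), 7 rose after risperidone: Cdhr1 (2.40), Calb2 (1.10), Dcx (0.91), Doc2g (0.79), Pax6 (0.78), Dlx5 (0.73) and Slc32a1 (0.41), with adjusted p between 0.011 and 0.0388. Without risperidone replicate 2, the array highest in them, Cdhr1 was at 1.78 (adjusted p = 0.0664) and Pax6 alone of the 7 was still called without each of the 10 rats of this comparison.

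In hippocampus the largest drug difference of any receptor probe set was found, that of Drd1 1368478_at after risperidone. The values were 6.22, 7.64, 7.03, 6.94 and 6.98 after risperidone, 6.03, 6.45, 6.57, 6.28 and 6.84 after haloperidol and 7.04, 6.07, 6.09, 6.05 and 6.17 after vehicle. Every risperidone array was above 4 of the 5 vehicle arrays, while vehicle replicate 1 was as high as most risperidone arrays. Risperidone minus vehicle was 0.68 (1.6-fold, standard error 0.26, 95% interval 0.15 to 1.2), and it did not pass the adjustment (adjusted p = 0.186 from limma, n = 5 rats each). Leaving out 1 rat at a time gave 0.51 (without risperidone replicate 2) to 0.87 (without vehicle replicate 1), and the difference was called only without risperidone replicate 1 (0.86, adjusted p = 0.045). The other Drd1 probe set averaged 6.19 ± 0.45 after risperidone and 5.84 ± 0.26 after vehicle, a difference of 0.35 (-0.14 to 0.85, adjusted p = 0.467) that was 0.18 without risperidone replicate 2. After haloperidol the Drd1 differences were 0.15 (-0.37 to 0.67) and 0.11.

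Drd2 in hippocampus was at 4.87, 5.72, 5.14, 5.33 and 5.24 after risperidone, against 5.04, 4.96, 5.03, 5.07 and 5.09 after vehicle, a difference of 0.22 (-0.24 to 0.68, adjusted p = 0.652) that was 0.10 without risperidone replicate 2. Haloperidol minus vehicle was -0.05. None of the 3 bright probe sets was called in hippocampus, where 0.113% of tested probe sets were called after risperidone and 0% after haloperidol (699 of 18609 at an unadjusted p under 0.05). Drd2 lay under the filter level on the arrays of this region. The hippocampus array of risperidone replicate 2, the highest for both genes, had 9 of 15 striatal markers above the region mean and 6 below (mean deviation 0.19). It was the highest of the region in 5 of them and the lowest in 2. In choroid plexus and meningeal markers it was 0.61 above the region mean, below the array of risperidone replicate 3 (1.24) and near that of haloperidol replicate 3 (0.51). In this region Drd1 and Drd2 had a correlation of 0.74 (permutation p = 0.0107, adjusted p = 0.0138; Spearman 0.41, adjusted p = 0.234) that rested on the 2 farthest arrays, without which it was 0.38, and their correlations with the striatal markers were 0.35 and 0.37 (adjusted p = 0.332 for both).

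Over the 6 comparisons of drug with vehicle, limma called none of the 18 tests of the 3 bright probe sets, and 1 of the 18 had an unadjusted p under 0.05, as did 15.7% of the tests of all probe sets past the filter. The 18 include those of Drd2 in hippocampus and frontal cortex, where its means lay under the filter level. Of the 30 tests of the 5 dim probe sets none was called and 4 had such a p, beside 13.9% of all tests without the filter. Without the filter, 2.81% of probe sets were called after risperidone in striatum, 0.0805% in hippocampus and 2.03% in frontal cortex, and 0.267%, 0.00322% and 0.0902% after haloperidol. The 4 dim values with an unadjusted p under 0.05 were spread over 3 genes. Drd3 in hippocampus read 3.57, 3.71, 3.84, 3.97 and 3.57 after haloperidol, against 3.65, 3.50, 3.37, 3.48 and 3.56 after vehicle, a difference of 0.22 (standard error 0.07, adjusted p = 1), and after risperidone (3.56 to 3.80) the difference was 0.17 (adjusted p = 0.308). Drd5 in hippocampus was 0.22 higher after risperidone (5.35, 4.89, 4.60, 5.23 and 4.95) than after vehicle (adjusted p = 0.343), with overlapping arrays, and 0.16 higher after haloperidol.

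For Drd4 1387520_at, haloperidol arrays of frontal cortex read 5.07, 4.90, 5.10, 5.09 and 5.20, against 4.70, 4.92, 4.71, 4.77 and 4.89 after vehicle, and haloperidol minus vehicle was 0.27 (0.10 to 0.45, adjusted p = 0.16). All but 1 haloperidol array lay above all vehicle arrays. Drd4 1394384_at had a difference of the same sign (4.97 ± 0.17 after haloperidol and 4.83 ± 0.11 after vehicle, SD, n = 5 each), and the group means of Drd4 1394385_s_at stayed between 4.52 and 4.75 in all 9 groups.

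Risperidone and haloperidol were then compared with each other. None of the 3 bright probe sets was called between the drugs, in comparisons that called 0.0161% of tested probe sets in striatum, 0% in hippocampus (1100 of 18609 at an unadjusted p under 0.05) and 0.768% in frontal cortex. Risperidone minus haloperidol for Drd1 1368478_at was -0.13 in striatum, 0.53 in hippocampus (adjusted p = 0.81) and 0.47 in frontal cortex (adjusted p = 0.305). In frontal cortex Drd4 1394384_at read 4.60, 4.64, 4.62, 4.55 and 4.76 after risperidone, against 4.79, 5.16, 5.03, 5.08 and 4.80 after haloperidol, with no overlap (true of 2.9% of probe sets there). The difference was -0.34 (standard error 0.10, adjusted p = 0.0794), where 0.519% of probe sets were called without the filter, and it was called without haloperidol replicate 1 (-0.38, adjusted p = 0.042). Drd4 1387520_at gave -0.27 (adjusted p = 0.0876). In hippocampus and striatum, where 0.00322% and 0.00966% were called without the filter, no dim receptor probe set had an unadjusted p under 0.05 between the drugs.

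Whether a drug acted differently on a receptor in 2 regions was tested as a difference of differences. The risperidone effect on Drd1 1368478_at in striatum minus that in hippocampus was -1.03 (standard error 0.32, 95% interval -1.69 to -0.38, adjusted p = 0.0794), so that it was not called, where 1.66% of tested probe sets were. It was called without risperidone replicate 1 (-1.30, adjusted p = 0.0177) and without vehicle replicate 1 (-1.25, adjusted p = 0.0406), and it was -0.82 (adjusted p = 0.195) without the striatum array of risperidone replicate 3. The same difference was -0.75 (adjusted p = 0.167) for 1368479_at, called without risperidone replicate 1 (-0.97, adjusted p = 0.0446), and -0.51 (adjusted p = 0.323) for Drd2. Without the striatum array of risperidone replicate 3 these were -0.46 (adjusted p = 0.397) and -0.27. Without the 3 arrays farthest from their region mean in striatal markers the 3 differences were -0.65, -0.31 and -0.13. The hippocampus array among them deviated by only 0.19 in these markers. Each of the 3 arrays was also the extreme of its region in Drd1 and Drd2, so part of the change follows from the choice. In striatum minus frontal cortex the risperidone effects had differences of -0.63, -0.58 and -0.57 (adjusted p = 0.248, 0.257 and 0.236), where 2.94% of probe sets were called. They were -0.41, -0.30 and -0.33 without that striatum array and -0.17, -0.01 and 0.01 without the 3 arrays. None of the 3 bright probe sets was called in hippocampus minus frontal cortex after risperidone (1.32% of probe sets called) or in any haloperidol comparison of this kind, which called 0.0269% of probe sets in striatum minus frontal cortex and 0% in both others (1563 and 1369 of 18609 at an unadjusted p under 0.05 in hippocampus minus frontal cortex and striatum minus hippocampus). None of the 5 dim probe sets was called in these 6 comparisons, in which without the filter 0.992% of probe sets were called after risperidone in striatum minus frontal cortex, 0.351% in hippocampus minus frontal cortex and 0.966% in striatum minus hippocampus, and 0.00322%, 0% and 0% after haloperidol.

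Genes whose pattern was most like that of the receptors were looked for among 10246 genes measured past the filter, as a description. Over the 9 group means, which differ mostly by region, the closest to Drd1 1368478_at were Ppp1r1b, which encodes DARPP-32 (r = 0.999), Gpr6 (0.998) and Adora2a (0.998), and the closest to Drd2 were Adora2a (1), Rasgrp2 (1) and Ppp1r1b (0.999). For 1368479_at they were Gpr6, Tnni3 and Ppp1r1b (0.999 each). Over the 15 striatum arrays, with treatment means subtracted, Drd1 1368478_at was closest to the phosphodiesterase gene Pde1b (0.985), Ppp1r1b (0.981) and Ano3 (0.981), and 1368479_at to Gnal, which encodes Golf (0.986), Pde1b (0.981) and Gpr6 (0.98). Drd2 was closest to Pde10a (0.986), Ngef (0.983) and the striatal phosphatase gene Ptpn5 (0.981). These arrays share the low values of risperidone replicate 3.

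The genes around the receptors were read from lists of dopamine signaling, 1 probe set per gene. In striatum after risperidone, 1 of 13 measured receptor G protein genes (of 14 listed) rose, 1 of 12 genes of receptor desensitization and RGS proteins (of 14) fell, 1 of 11 receptor partners (of 15) fell, and 0 of 26 cAMP and DARPP-32 effectors (of 27; 9 at an unadjusted p under 0.05) and 0 of 5 genes of dopamine synthesis, transport and breakdown (of 10; 1 at such a p) were called. Of the direct pathway neuron markers 1 of 7 (of 9 listed) rose and 1 fell, and 0 of 6 indirect pathway neuron markers (of 10; 0 at such a p) were called. The medians of these lists were -0.05, -0.12, -0.07, -0.04, 0.03, -0.23 and -0.16 in that order, beside -0.02 over all genes. In this comparison 22.4% of all tested probe sets had an unadjusted p under 0.05 and 3.65% were called, beside 20 and 5 of the 80 measured entries of these lists. Over the same 80 entries, limma called 0 after haloperidol in striatum (13 at such a p, beside 15.4% of all probe sets), 0 after risperidone in hippocampus (14, beside 16.6%) and 0 after haloperidol in hippocampus (1, beside 3.76%).

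Tac1, of the direct pathway, read 11.19, 11.57, 10.34, 11.36 and 11.20 after risperidone and 11.48, 11.65, 11.29, 11.54 and 11.32 after haloperidol, against 11.75, 11.67, 12.11, 12.13 and 11.78 after vehicle. Both drug groups lay wholly below vehicle, as either direction of no overlap was found for 3.15% of probe sets after risperidone and 2.83% after haloperidol. It fell by 0.76 after risperidone (log2 -0.76 with a standard error of 0.22, limma adjusted p = 0.0388) and was -0.43 from vehicle after haloperidol (adjusted p = 0.341). Leaving out risperidone replicate 3 or 5 or vehicle replicate 2, 3, 4 or 5 ended the risperidone call, with the highest adjusted p, 0.205, without risperidone replicate 3 (log2 -0.56). Eya1, the other gene of the direct pathway list with a call, averaged 7.33 ± 0.09 after risperidone and 7.05 ± 0.22 after vehicle (log2 0.28, limma adjusted p = 0.0381). Its vehicle means were higher in frontal cortex (8.31) and hippocampus (8.27), so its signal did not mark striatum in these samples. The Eya1 call ended without risperidone replicate 3, 4 or 5 or vehicle replicate 1, 2, 3 or 4, with 0.19 (adjusted p = 0.166) without vehicle replicate 1. The indirect pathway genes Adora2a (-0.34, adjusted p = 0.281) and Gpr6 (-0.24, adjusted p = 0.319) did not pass the test after risperidone.

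Gnas, which encodes the alpha subunit of Gs, averaged 11.93 ± 0.30 after risperidone and 11.94 ± 0.11 after haloperidol, against 11.61 ± 0.15 after vehicle (SD, n = 5 each). It rose by 0.32 after risperidone (standard error 0.09, adjusted p = 0.0238) and was 0.33 from vehicle after haloperidol (adjusted p = 0.0687). The risperidone call ended without risperidone replicate 3, 4 or 5 or vehicle replicate 2, 3 or 5, with 0.24 (adjusted p = 0.143) without risperidone replicate 3. Rgs2, a GTPase-activating protein for G proteins, averaged 10.63 ± 0.36 after risperidone, 10.71 ± 0.14 after haloperidol and 11.01 ± 0.07 after vehicle. It fell by 0.38 after risperidone (adjusted p = 0.0439). This call ended without risperidone replicate 3 (-0.24, adjusted p = 0.28) or 5, without any of the 5 vehicle rats, and without haloperidol replicate 2, 3 or 4, which share the fit. Nsf, an ATPase of membrane fusion listed among the receptor partners, fell by 0.27 (adjusted p = 0.0307), and this call ended without risperidone replicate 3 (-0.22, adjusted p = 0.151) or 4 or vehicle replicate 2, 3 or 4.

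The other genes named are those with the 2 smallest p of their list, and genes further down a list are not given. Gnb5, a beta subunit of G proteins, was at -0.24 after risperidone (adjusted p = 0.029), under the 1.2-fold threshold. The phosphodiesterase gene Pde7b was at -0.35 (adjusted p = 0.0537), and Prkar2b, a regulatory subunit of protein kinase A, was at -0.28 (adjusted p = 0.0769). Aldh1a1 was at 0.56 (adjusted p = 0.0873), and Rgs8, Caly and Ddc, the gene of the enzyme that makes dopamine from L-DOPA, had adjusted p of 0.187 to 0.561. After haloperidol none was called, and the 2 genes of each list included Gnas, Pde7b (-0.32, adjusted p = 0.159), Sfxn1 (-0.15, 0.164), Rgs2 (-0.30, 0.207), Caly (-0.19, 0.239), Ppp1ca (-0.14, 0.24), Gnb5 (-0.16, 0.246), Gipc1 (0.13, 0.272) and Ebf1 (-0.32, 0.299). The others, Grk5, Gucy1a1, Slc18a2, Plxdc1 and Ddc, had adjusted p of 0.474 to 0.763. In frontal cortex after risperidone, 2 of the 80 entries passed the test, beside the 3.4% of all probe sets. The direct pathway marker Slc35d3 rose by 1.29 (limma adjusted p = 0.0246). It averaged 5.59 ± 1.13 there after risperidone (4.41 to 7.29) and 4.31 ± 0.47 after vehicle. Both means lay under the filter level of 5.88, which Slc35d3 passed through its striatum arrays. Ppp1cb, a catalytic subunit of protein phosphatase 1, fell by 0.35 (adjusted p = 0.0492). The Slc35d3 call ended without risperidone replicate 2 (0.86, adjusted p = 0.123) or vehicle replicate 1, 2, 4 or 5, and the Ppp1cb call without any single rat other than risperidone replicate 2, vehicle replicate 3 and haloperidol replicates 1, 2, 4 and 5 (adjusted p at most 0.124).

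The group differences of the marker lists are given beside those of the receptors, none of which was called. In striatum after risperidone 14 of 15 striatal markers lay below vehicle (median -0.27, beside -0.02 over all genes). Beside 2.76% of all tested probe sets called lower, 3 of the 15 fell: Tac1, the transcription factor gene Foxp1 (-0.36, adjusted p = 0.028) and Actn2 (-0.54, adjusted p = 0.0382). Without risperidone replicate 3 they were at -0.56, -0.21 and -0.26, and none of the 3 was called. After haloperidol 14 of 15 lay below vehicle (median -0.17), and 0 were called (1 at an unadjusted p under 0.05), where 0.339% of all tested probe sets were. Of the 11 cortical and pyramidal neuron markers, 10 lay above vehicle in striatum after risperidone (median 0.44) and 9 after haloperidol (median 0.48). Emx1 rose after risperidone (0.44, adjusted p = 0.0284), where 0.887% of all tested probe sets were called higher. Without risperidone replicate 3 Emx1 was at 0.27 (adjusted p = 0.195). Of the 5 thalamic markers measured (6 listed) Rora fell after risperidone, by 0.48 in striatum (adjusted p = 0.00487) and by 0.40 in frontal cortex (adjusted p = 0.0184), where 3.4% of all tested probe sets were called. The striatal call held without each of the 10 rats, and the Rora difference in frontal cortex was -0.33 (adjusted p = 0.07) without risperidone replicate 2. Their part in the values of Tac1, Gnas and Rgs2 was not tested.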

How the data were processed

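RNA of striatum, hippocampus and frontal cortex from 15 rats was measured on 45 Affymetrix arrays. The deposited values are linear intensities that the authors obtained with RMA under R 2.7.2; 57 control probe sets were left out of all tests. Intensities were converted to log2. An array gives no read depth, and the number of rats limits the precision. All columns could be mapped to a sample, and no 2 arrays were identical (highest correlation 0.9967).

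One fit in limma 3.58.1 (R 4.3.3, statmod 1.5.0) estimated 9 means, 1 for each region under each treatment, with a random effect of rat (correlation 0.226, 39.9 degrees of freedom), after the random factor for matched samples in the methods of the study. Moderated t statistics were adjusted (Benjamini-Hochberg) separately for each of 18 comparisons: 6 of drug with vehicle, 3 between drugs, 3 between regions of vehicle rats and 6 of a drug effect between regions. Of the tested probe sets, 14116 carry 1 gene, 306 several and 4187 none.

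The receptors and all gene lists were chosen with earlier results of these data known. By the rule for naming genes, the text names all receptor probe sets, every list gene called in a comparison of drug with vehicle, the 2 genes with the smallest p per pathway list and drug in striatum, and the 3 genes most like each bright receptor probe set. Genes that lead the order of region differences were picked once their values had been seen.

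The fit was tested on simulated arrays of the risperidone comparison in striatum with 18609 probe sets. It recovered 92 of 100 probe sets with a true 1.5-fold change and 99 of 100 with a 2-fold change, and it called 5 of 18409 unchanged ones. The simulated noise was independent between probe sets and had the same spread in all groups, unlike the real arrays. These counts therefore check the fit and do not give its power for the receptors. The standard error of Drd1 1368478_at after risperidone in striatum was 0.26. Alternatives were other filters, scalings, treatment of the rat and of the replicate number, fits on fewer arrays and leaving out each rat in turn. Promoter letters were counted with Python 3.11.15, and figures were drawn with matplotlib 3.10.9.

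Replicate numbers do not pair treatments: deviations of same-numbered rats of different treatments had correlations of -0.38 to 0.55 (median -0.02, 45 pairs), while those of 1 rat in 2 regions had 0.01 to 0.67 (median 0.35).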

Additional observations from a re-analysis of the deposited data

Results flagged for a closer look

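In 9 of 72 groups of 5 arrays (8 probe sets in 9 groups), 1 array lay apart from the other 4 by more than Dixon's 95% limit of 0.71 of the range, where chance gives about 1 in 20 groups. In striatum after risperidone, replicate 3 was low in Drd1 1368479_at (9.24, next 10.53) and Drd2 (9.53, next 10.63). This was the array with the lowest striatal markers. In frontal cortex after risperidone, replicate 1 was high in Drd2 (6.91, next 5.49) and Drd5 (4.04, next 3.92), and 14 of 15 striatal markers lay above the region mean on it. In hippocampus after vehicle, replicate 1 was high in Drd1 1368478_at (7.04, next 6.17) and 1368479_at (6.29, next 5.81).

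In frontal cortex after haloperidol, Drd2 of replicate 3 was 5.08 (next 5.36). Drd3 of replicate 4 after risperidone was 3.68 in frontal cortex (next 3.53) and 3.37 in striatum (next 3.56).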

How the results depend on the processing

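Of 3468 receptor values recomputed under other settings, 2850 concern a drug, and 5 of those were called, each without 1 rat; 130 values that were not called changed sign, and 0 called values did. Drd1 and Drd2 were called higher in striatum (3 probe sets in both comparisons) under all settings run. Between hippocampus and frontal cortex of vehicle rats, 0 of the 3 were called, against 2 with quantile normalization across arrays and 2 with equal medians. The count was 2 on the vehicle arrays alone, 1 averaged over the 3 treatments and 1 without the striatum array of risperidone replicate 3. It was 2 without the 3 arrays farthest from their region mean in striatal markers, a choice made after seeing the data. Leaving out 1 rat gave 0 to 2: Drd1 1368478_at was called without risperidone replicate 1 (-0.47, adjusted p = 0.0307) or 3 or vehicle replicate 1 (-0.64) or 5, and Drd2 without risperidone replicate 1. After risperidone in hippocampus it gave 0 to 1 of the 3 (1 without risperidone replicate 1), and for the risperidone effect in striatum against hippocampus 0 to 2 (2 without risperidone replicate 1, 1 without vehicle replicate 1).

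Of the dim probe sets, Drd5 in striatum against frontal cortex was called with equal medians (0.27), averaged over treatments (0.28) and without vehicle replicate 2, 4 or 5. Drd4 1387520_at lost its 2 region calls averaged over treatments (0.21 and -0.16), and that of striatum against hippocampus without vehicle replicate 2 (-0.20). Drd3 (-0.31) and Drd4 1394384_at (-0.30) were called lower in hippocampus than in frontal cortex with equal medians. With the replicate number as a block no receptor call changed (Drd1 1368478_at after risperidone in hippocampus 0.68, adjusted p = 0.191), and among the list genes named only Ppp1cb in frontal cortex lost its call; with neither the rat nor the number as a block only Actn2 in striatum did. Fits on a region's own arrays ended the risperidone calls of Gnas, Rgs2, Nsf, Eya1, Tac1, Foxp1, Actn2 and Emx1 in striatum and of Slc35d3, Ppp1cb and the 7 olfactory bulb markers in frontal cortex; such fits were not run for drug effects between regions. The causes were not tested.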
